A study of Homo sapiens with 6 samples.

Results

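Chromatin accessibility was examined at 8 genes tied to the PICALM-MLLT10 fusion (also called CALM-AF10), out of 19974 protein-coding genes on chromosomes 1-22 and X. The 8 genes were taken by name: the fusion partners PICALM and MLLT10, the histone methyltransferase gene DOT1L, the export receptor gene XPO1, the homeobox genes MEIS1 and PBX3, the menin gene MEN1 and the Polycomb gene BMI1. ATAC-seq, which tags open DNA with a transposase loaded with adapters, had been run on U937, an established human monocytic cell line that carries this fusion. The peaks collected for each gene were those that reach within 1000 bp of either gene end (gene-end peaks), those that overlap the gene, and those within 50 kb of it.

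The libraries fell into 2 groups of 3. The control group held 3 U937 lines transduced with control plasmids, with a genotype given as control. The ΔNSPs group held 3 independent U937 clones in which the neutrophil serine protease genes CTSG, ELANE and PRTN3 had been depleted together; how the depletion was made is not given in the labels. All 6 were grown in RPMI1640 with 10% fetal bovine serum under selection with 500 µg/ml geneticin. Cells of both groups were treated with 200 units/ml DNase at 37 °C for 30 min, washed, and frozen in 5% DMSO before ATAC-seq. Each library was represented by its own peak list on build GRCh38. A list gives no value where it has no peak, so a gene was compared by whether a peak was listed, and fold enrichment (signal at the summit over the local background, the authors' value) described the peaks. In these bulk libraries a site open in fewer cells and a site less open in each cell cannot be told apart. Reads were placed on the reference genome, so the rearranged and the normal copies of PICALM and MLLT10 cannot be told apart either.

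The fusion arises from a translocation between chromosomes 10 and 11 that joins PICALM, a clathrin assembly gene, to MLLT10, which encodes AF10, a cofactor of the histone H3 methyltransferase DOT1L. Leukaemia cells with the fusion are known for high expression of HOXA genes and of MEIS1, whose product pairs with PBX proteins and HOXA9 on DNA. The fusion protein contains a nuclear export signal that is recognised by XPO1 (CRM1). Menin, the product of MEN1, tethers the histone methyltransferase KMT2A (MLL) to HOXA and MEIS1 genes in other leukaemias. BMI1 is a subunit of Polycomb repressive complex 1 and is known for supporting self-renewal of leukaemia cells.

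Start-site sequences that lay at least partly under a peak are shown first, for PICALM, XPO1, MEIS1 and MEN1. Other peaks at XPO1 and MEIS1 lay outside the printed stretches. Each runs 5′ to 3′ on the gene's own strand from 250 bases before a RefSeq start to 30 bases from that start on, as the RefSeq promoter table (GRCh38.p14) gives it. Capitals mark the bases under a peak: of clone 1 for PICALM and XPO1, of clone 2 for MEIS1, and of both clones 1 and 2 for MEN1. The PICALM stretch is chr11:86069055-86069334 on the minus strand, XPO1 is chr2:61538327-61538606 on the minus strand, MEIS1 is chr2:66434875-66435154 on the plus strand, and MEN1 is chr11:64810522-64810801 on the minus strand.
PICALM: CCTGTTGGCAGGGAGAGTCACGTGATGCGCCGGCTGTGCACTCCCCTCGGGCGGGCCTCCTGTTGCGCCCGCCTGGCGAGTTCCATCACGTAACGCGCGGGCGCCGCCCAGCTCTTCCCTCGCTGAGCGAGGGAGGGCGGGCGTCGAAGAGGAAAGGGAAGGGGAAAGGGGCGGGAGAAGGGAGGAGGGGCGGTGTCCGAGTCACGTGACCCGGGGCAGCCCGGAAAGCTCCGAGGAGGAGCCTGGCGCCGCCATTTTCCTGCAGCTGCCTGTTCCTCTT
XPO1: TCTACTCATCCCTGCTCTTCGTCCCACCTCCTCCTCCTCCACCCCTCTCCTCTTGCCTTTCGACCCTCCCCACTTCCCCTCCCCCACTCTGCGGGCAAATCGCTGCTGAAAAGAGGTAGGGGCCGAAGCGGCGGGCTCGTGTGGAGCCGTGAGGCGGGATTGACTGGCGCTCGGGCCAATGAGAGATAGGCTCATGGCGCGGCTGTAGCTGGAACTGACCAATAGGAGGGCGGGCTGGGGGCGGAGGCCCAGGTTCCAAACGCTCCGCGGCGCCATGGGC
MEIS1: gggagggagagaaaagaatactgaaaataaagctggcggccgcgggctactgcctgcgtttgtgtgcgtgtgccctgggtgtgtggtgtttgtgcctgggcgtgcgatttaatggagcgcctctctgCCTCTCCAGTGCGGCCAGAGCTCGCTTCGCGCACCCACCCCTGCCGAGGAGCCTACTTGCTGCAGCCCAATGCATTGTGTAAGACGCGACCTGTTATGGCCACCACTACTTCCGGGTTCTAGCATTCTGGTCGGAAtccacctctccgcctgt
MEN1: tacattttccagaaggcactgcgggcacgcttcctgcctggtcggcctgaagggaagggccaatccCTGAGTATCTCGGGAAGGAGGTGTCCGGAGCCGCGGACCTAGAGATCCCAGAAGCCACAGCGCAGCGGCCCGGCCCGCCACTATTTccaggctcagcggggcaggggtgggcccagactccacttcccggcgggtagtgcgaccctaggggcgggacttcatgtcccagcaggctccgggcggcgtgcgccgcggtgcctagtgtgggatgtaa
All 280 printed bases of PICALM and of XPO1 were under a clone 1 peak. In MEIS1, 136 bases were covered, from 123 before to 12 after the start. In MEN1, the peaks of both clones covered the same 86 bases, from 184 to 99 before the start at 64810551. Each of these peaks also covered bases outside the capitals, and the clone 1 summit lay outside them.

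In the ΔNSPs clones, 7 of the 8 genes had a peak within 50 kb in at least 2 clones, beside 62.5% of all protein-coding genes, and in the control lines none of the 8 had one, beside 0.0701% or less of all genes. Gene-end peaks were found at PICALM, DOT1L, XPO1, PBX3 and MEN1 in clone 1, at XPO1, MEIS1, PBX3 and MEN1 in clone 2, and at none of the 8 in clone 3. XPO1, PBX3 and MEN1 had one in both clones 1 and 2. MLLT10 and BMI1 had no gene-end peak in any library. DOT1L was the only one of the 8 with a peak inside the gene in all 3 clones, beside 4.26% of all genes. Its interior peaks lay at different positions in the clones and shared no base.

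Counted by library, 0, 0 and 0 of the 8 genes had a gene-end peak in control lines 1, 2 and 3 and 5, 4 and 0 did in clones 1, 2 and 3. The clone mean was 3.0 ± 2.65 genes (SD, n = 3), and clone 3 overlapped the control lines (exact two-sided permutation p = 0.4). Over all genes the gene-end shares were 39.1, 29.6 and 6.55% in the clones, 0.00501% in control line 1 and 0 in the other control lines. Peaks inside the gene were found at 6, 5 and 1 of the 8 genes in clones 1, 2 and 3, beside 40.6, 37.1 and 5.77% of all genes, and at none in the control lines, beside 0.02% or less of all genes. That mean was 4.0 ± 2.65 genes (SD, n = 3) and the groups did not overlap (exact two-sided permutation p = 0.1). Within 50 kb, 8, 7 and 2 of the genes had a peak in clones 1, 2 and 3, a mean of 5.67 ± 3.21 (SD, n = 3), against 0 in each control line (exact two-sided permutation p = 0.1). Over all genes the shares within 50 kb were 70.5, 75.4 and 22.5% in the clones and 0.0701, 0.01 and 0.015% in the control lines. The smallest p that 3 libraries against 3 can give is 0.1, so none of these tests could pass 0.05.

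**Figure D1:**
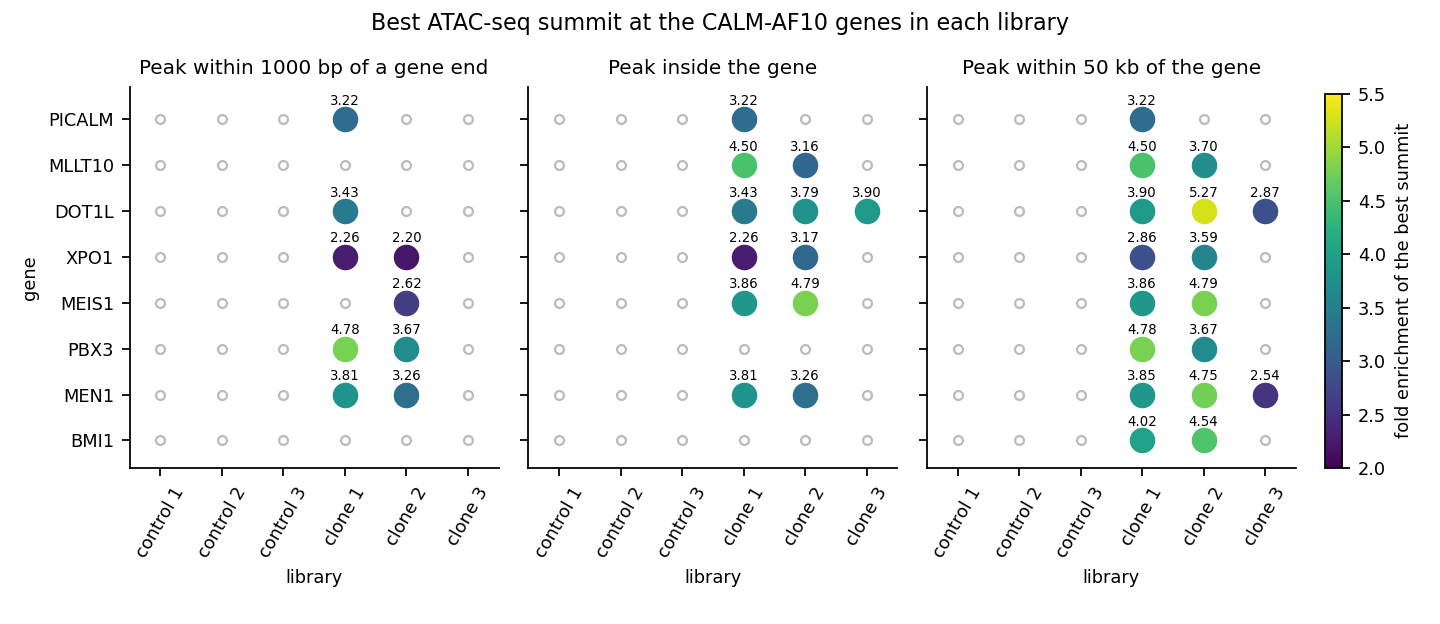
Best summit of each gene (rows) in each library (columns) within 1000 bp of a gene end, inside the gene and within 50 kb; filled points are coloured and labelled by the authors' fold enrichment, and open grey circles are genes without a peak. The 3 control columns hold no filled point, and clone 3 has 1 inside a gene (DOT1L) and 2 within 50 kb (DOT1L and MEN1).

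The counts were read against all genes. A gene was called where at least 2 of the 3 clones and no control line had a peak. At gene ends 3 of the 8 genes were called, beside 23.3% of all protein-coding genes. Inside genes 5 of 8 were called (MLLT10, DOT1L, XPO1, MEIS1 and MEN1), beside 24.6% of all. Within 50 kb 7 of 8 were called, all but PICALM, beside 62.5% of all. Without clone 1 or without clone 2, 0, 1 and 2 of the 8 were called at gene ends, inside the gene and within 50 kb, beside 5.63, 4.78 and 21.9% of all genes without clone 1 and 6.21, 5.09 and 21.6% without clone 2. Peaks in all 3 clones were rarer, found at the ends of 0 of the 8 and 5.4% of all genes, inside 1 of 8 and 4.26%, and within 50 kb of 2 of 8 and 21.1%. The 8 genes were longer than most, with a median of 90.8 kb (7.78 to 220.0 kb) against 24.2 kb over all genes. A longer gene offers more room for a peak inside it, and the part of length in that count was not tested.

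**Figure D2:**
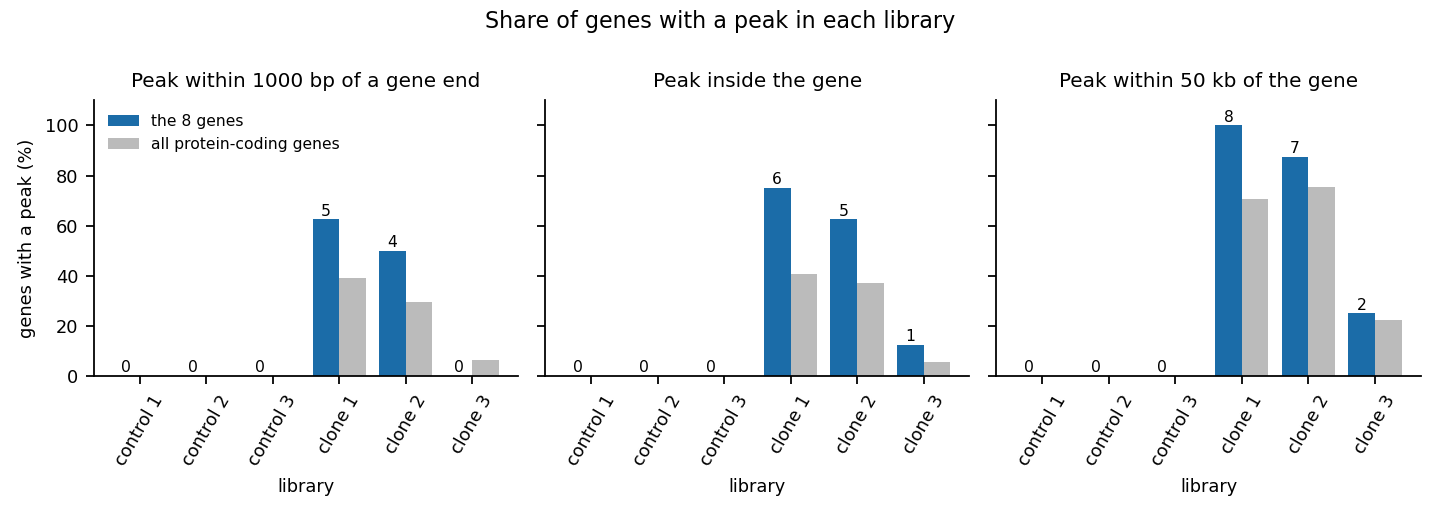
Percent of genes with a peak in each library, for the 8 genes (blue, with the number of genes above the bar) and all protein-coding genes (grey), by position of the peak. At gene ends the blue and grey bars stand at 5 of 8 and 39.1% in clone 1, 4 of 8 and 29.6% in clone 2, and 0 of 8 and 6.55% in clone 3; control line 1 had a gene-end peak at 0.00501% of all genes and the other two control lines at none.

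The lists themselves differed in length. On chromosomes 1-22, X and Y, control lines 1, 2 and 3 had 13, 4 and 2 peaks, and clones 1, 2 and 3 had 14262, 24981 and 2188. The files give no read totals, and the depth of the libraries is unknown. The control lists also start at smaller p-values: the lowest −log10 p was 7.45 to 8.0 in the control lists and 4.89, 4.86 and 5.75 in clones 1, 2 and 3. Of the peaks within 50 kb of the 8 genes, 11 of 22 in clone 1, 11 of 25 in clone 2 and 1 of 4 in clone 3 reached a −log10 p of 8.0, beside 49.0, 51.1 and 46.5% of all peaks in these lists. The part of depth and threshold in the counts was not tested beyond the alternatives given in the closing section. Among the depleted genes, ELANE and PRTN3 had no gene-end peak in any library and CTSG had one in clone 2, with a fold of 3.2, which does not check the depletion. Of 12 monocytic marker genes, CD68 and ITGAM met the call rule at a gene end, beside 23.3% of all genes. CD14, CSF1R, CD33 and CD4 had a gene-end peak in clone 2 alone, and CEBPA in clone 1 alone. CYBB, FCGR1A, LYZ, MPO and SPI1 had none in any library. Of markers of other lineages, 0 of 6 B cell, 1 of 6 T cell (CD3E), 1 of 5 erythroid (KLF1) and 0 of 6 epithelial and hepatocyte genes were called. The share of all genes is 23.3% here too, and with so few genes per list these counts do not tell the lineages apart.

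PICALM (gene ID 8301, chr11:85957175-86069860, minus strand) encodes a phosphatidylinositol-binding adaptor that helps assemble clathrin coats, and supplies the N-terminal part of the fusion protein. It had 1 peak within 50 kb in all 6 libraries together. That peak, in clone 1, spanned 86069051 to 86069383, with its summit 183 bp before the RefSeq start at 86069084 and 593 bp inside the gene's outer 5′ end. Its fold was 3.22, with a −log10 p of 13.4 and a −log10 q of 9.4, which ranked 1857 of 14262 in the list (top 13.0%). The fold and p imply a pile-up of 53 reads over a background of 15.8. Clone 2, with the longest list, had its nearest peak 92.6 kb from the gene, and clone 3 5.48 Mb away. The peak thus stood in the upper part of one clone's list and was not listed in the other clones or in the control lines.

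The peak covered 284 of the 300 bases of the promoter at 86069084 and none of the promoter at 86069860, the gene's other RefSeq start. The covered promoter had 69.7% G+C and held 5 GC boxes (GGGCGG, on either strand) and 2 E-boxes (CACGTG), while the uncovered one had 46.0% G+C and a single GC box.

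MLLT10 (gene ID 8028, chr10:21533756-21743630, plus strand) encodes AF10, which binds unmodified histone H3 and stimulates DOT1L, and supplies the C-terminal part of the fusion. It had no peak within 1000 bp of a gene end in any library. Clone 1 had 1 peak in the gene, 21541179 to 21541364, with a fold of 4.5 and a −log10 q of 3.07, resting on an implied pile-up of 9 reads over 1.22. Clone 2 had 1 in the gene, 21534959 to 21535023, with a fold of 3.16 and a −log10 q of 2.14, 14 reads over 3.75. These in-gene peaks lay 6.16 kb apart and shared no base, so the call inside MLLT10 joined separate sites.

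The clone 2 site lay 731 bp after the RefSeq start at 21534232 and 203 bp outside the gene-end window. It ranked 24287 of 24981 in its list. A second clone 2 peak lay 23.8 kb before the gene, with a fold of 3.7. Clone 3 had no peak within 6.79 Mb. The promoter at 21534232 had 80.3% G+C and the one at 21533756 had 56.3%, and neither had a base under a peak.

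**Figure D3:**
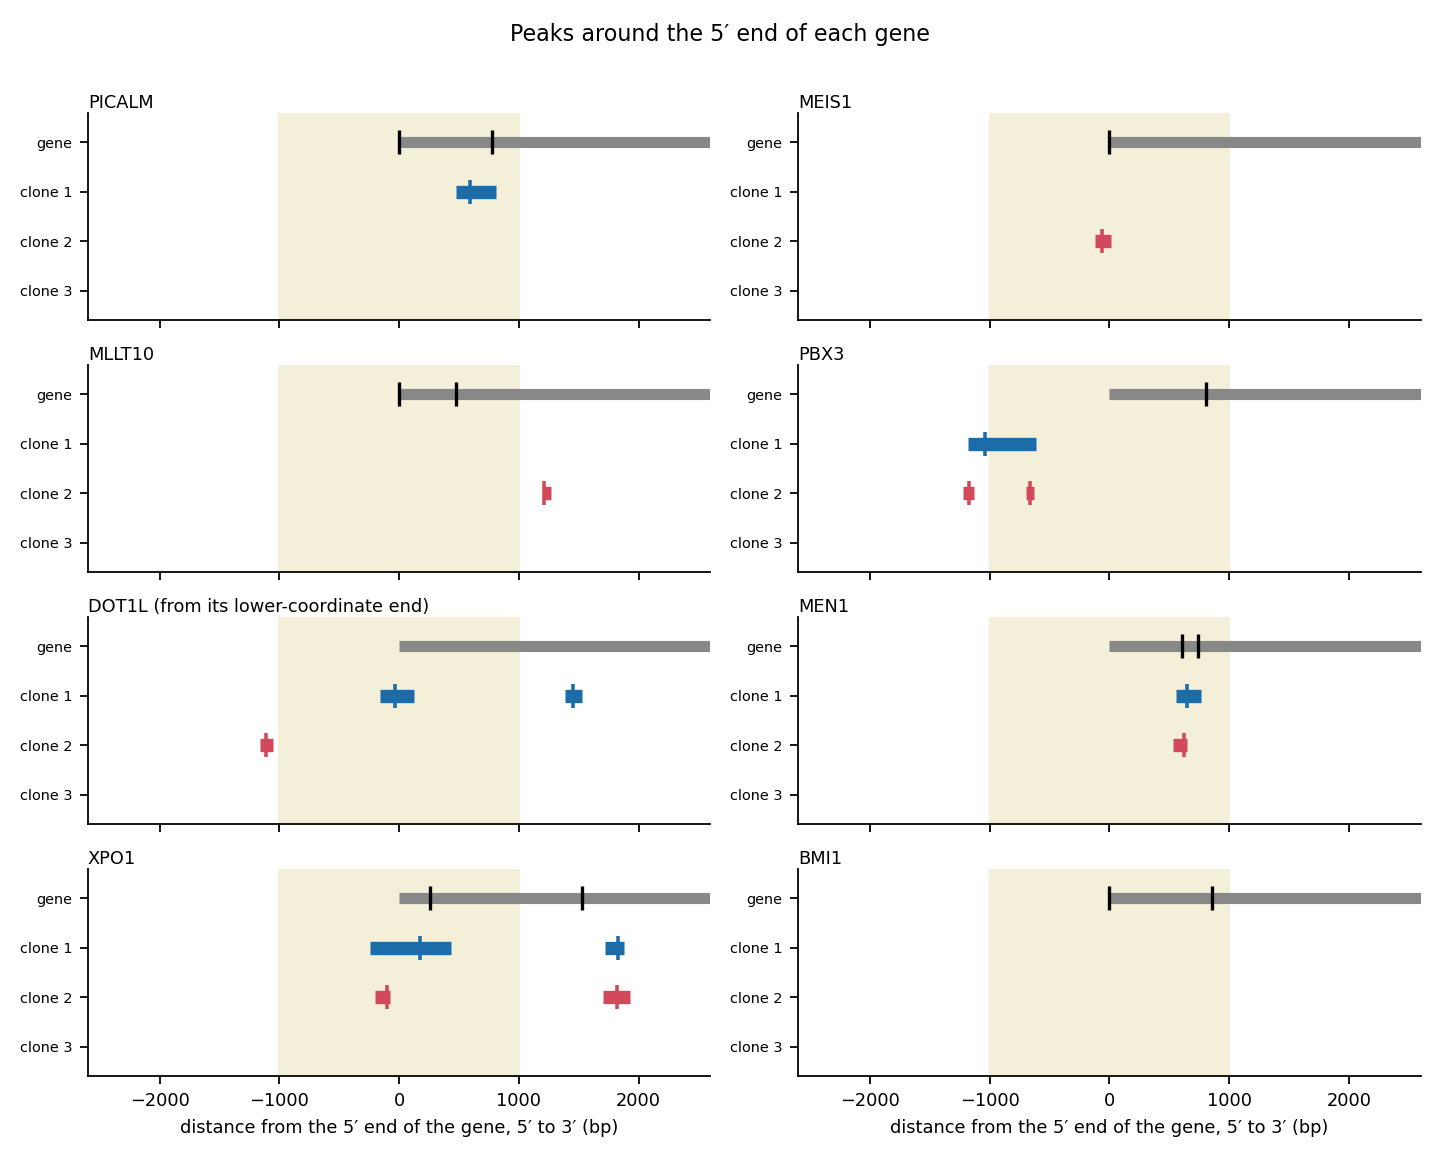
Peaks of the clones around each gene's 5′ end (x axis, bp, drawn 5′ to 3′; DOT1L from its lower-coordinate end); coloured bars are peaks with a tick at the summit, the grey bar is the gene, black ticks are RefSeq starts and shading marks the 1000 bp window. XPO1, PBX3 and MEN1 carry bars of both clones 1 and 2 in the shading, PICALM and DOT1L of clone 1 alone, and MEIS1 of clone 2 alone; clone 3 has no bar there.

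DOT1L (gene ID 84444, chr19:2163933-2232578) encodes the enzyme that methylates a lysine in the globular core of histone H3 and binds AF10. It was the gene with the most peaks of the 8. Within 50 kb it had 6, 7 and 3 peaks in clones 1, 2 and 3 and 0, 0 and 0 in the control lines, while the median over all genes was 1, 2 and 0 in the clones. As many peaks or more were found at 8.21, 10.2 and 2.56% of all genes. The surroundings hold 7 other protein-coding genes, among them AP3D1, PLEKHJ1, SF3A2 and OAZ1, and most of these peaks lay outside DOT1L.

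At the lower-coordinate end of DOT1L, clone 1 had a peak from 2163770 to 2164059 with a fold of 3.43 and a −log10 q of 4.32. Its summit lay 38 bp outside the gene, in a stretch that also lies at the end of AP3D1, a subunit gene of the AP-3 adaptor. Clone 2 had a peak at the same end that missed the gene-end window by 49 bp, from 2162774 to 2162884, with a fold of 5.27 and a −log10 q of 8.48 (rank 4939 of 24981). DOT1L was therefore open near this end in 2 clones, at sites that did not overlap, and counted in 1.

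Inside DOT1L, clone 1 had peaks at 2165322 to 2165463 (fold 3.61, −log10 q 2.08) and at 2187892 to 2188027 (fold 3.71, −log10 q 2.8). Clone 2 had one at 2169068 to 2169210, with a fold of 3.79 and a −log10 q of 2.48. Clone 3 had one at 2168369 to 2168493, with a fold of 3.9 and a −log10 q of 2.13 on an implied pile-up of 12 reads over 2.34. The clone 2 and clone 3 peaks were 575 bp apart, and the clone 1 peaks were at least 2.91 kb from either. The presence of DOT1L in all 3 clones thus came from peaks at different positions, and these 4 interior peaks stood 80.2 to 96.6% of the way down their lists.

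A single region near DOT1L was shared by all 3 clones. It spanned 2151591 to 2152036, inside AP3D1 and 11.9 kb from DOT1L, and its folds were 2.54, 3.77 and 2.87 beside −log10 q values of 4.1, 7.53 and 4.39 in clones 1, 2 and 3. On the other side, clones 1 and 3 shared a region 3.73 kb beyond the higher-coordinate end. The clone 1 summit there lay 78 bp before the PLEKHJ1 start (fold 3.9), and the clone 3 summit 38 bp before the SF3A2 start (fold 2.71). Clones 1 and 2 shared a region 38.4 kb away, near OAZ1, with folds of 3.12 and 4.82.

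XPO1 (gene ID 7514, chr2:61477849-61538612, minus strand) encodes exportin 1, which carries proteins with a leucine-rich export signal out of the nucleus. Clones 1 and 2 shared 3 of its 4 regions, the highest such share among the 8 genes. At the gene's outer start, clone 1 had a peak of 680 bp, from 61538177 to 61538856, with 3 summits, the best at 85 bp before the RefSeq start at 61538356. Its fold was 2.26 and its −log10 q 5.97. Clone 2 had a peak of 126 bp in the same region, from 61538690 to 61538815, with a fold of 2.2, a −log10 q of 4.1 and its summit 353 bp before that start.

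These were among the lowest folds of the set but also among its highest pile-ups. The implied values were 69 reads over 30.0 in clone 1 and 55 over 24.5 in clone 2. A second shared site lay in the gene just after the RefSeq start at 61537087. Its fold was 2.12 in clone 1 (summit 306 bp after the start, −log10 q 2.2) and 3.17 in clone 2 (296 bp after, −log10 q 8.34). Between these sites the order of the clones differed: clone 1 had the higher −log10 q at the outer start and clone 2 at the inner one.

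The third shared region lay 6.47 kb from XPO1, at the start of USP34, a ubiquitin protease gene, where clone 1 had a fold of 2.86 (−log10 q 6.65) and clone 2 of 3.59 (−log10 q 12.8). Clone 3 had no peak within 4.68 Mb of XPO1. Control line 1 had the only control peak on chromosome 2, 91.2 Mb away; no control line had a peak on chromosomes 9, 10, 11 or 19, where 6 of the 8 genes lie.

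MEIS1 (gene ID 4211, chr2:66435125-66573869, plus strand) encodes a TALE homeodomain cofactor of HOXA9. At its start only clone 2 had a peak, from 66435002 to 66435137, with the summit 63 bp before the RefSeq start. Its fold was 2.62 and its −log10 q 3.06, an implied 29 reads over 10.5, and it ranked 18883 of 24981. Clone 1 had no peak at this start, and clone 3 none within 438 kb of the gene.

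A site deep in MEIS1 was shared instead. Clone 1 had a peak from 66569338 to 66569544 with a fold of 3.86 and a −log10 q of 6.01, and clone 2 from 66569389 to 66569495 with a fold of 4.79 and a −log10 q of 5.42. The clone 2 peak lay wholly in the clone 1 peak, and the summits were 134288 and 134294 bp after the start, about 4 kb before the 3′ end. It was 1 of 2 regions inside the 8 genes and away from their ends that 2 clones shared; the other was the inner start site of XPO1. Clone 2 had a further peak 2.36 kb past the 3′ end, with a fold of 3.47. MEIS1 has no protein-coding neighbour within 50 kb.

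PBX3 (gene ID 5090, chr9:125747373-125967377, plus strand) encodes a TALE homeodomain protein that forms complexes with MEIS1 and HOXA9, and it is the longest of the 8 genes. Its strongest site lay just before the gene. Clone 1 had a peak of 572 bp, from 125746191 to 125746762, with 2 summits, a fold of 4.78, a −log10 p of 15.0 and a −log10 q of 10.9, ranking 1260 of 14262 (top 8.83%). Clone 2 had a peak of 66 bp inside that interval, 125746680 to 125746745, with a fold of 3.67 and a −log10 q of 5.86. A second clone 2 peak overlapped the other end of the clone 1 interval, with a fold of 2.81, and missed the gene-end window by 132 bp.

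The best summits of clones 1 and 2 lay 1847 and 1476 bp before the RefSeq start at 125748183, so PBX3 had no peak within 1000 bp of that start. The promoter there, with 76.0% G+C, had no base under a peak. No library had a peak inside PBX3's 220.0 kb. Clone 1 had a peak 40000 bp before the gene, at the start of MAPKAP1, with a fold of 3.88, and clone 3 had none within 506 kb.

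MEN1 (gene ID 4221, chr11:64803516-64811294, minus strand) encodes menin, and at 7.78 kb it is the shortest of the 8 genes. Clones 1 and 2 had overlapping peaks on its start, from 64810531 to 64810735 in clone 1 and from 64810650 to 64810767 in clone 2. The folds were 3.81 and 3.26, the −log10 q values 6.59 and 3.11, and the summits lay 40 and 14 bp after the RefSeq start at 64810686. Both MEN1 promoters, at 64810551 and 64810686, were partly covered in both clones.

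Clone 3 had a peak 24.4 kb from MEN1, at the start of the splicing factor gene SF1, in a region that all 3 clones shared. The folds there were 2.56, 4.75 and 2.54 in clones 1, 2 and 3 and the −log10 q values 5.85, 18.5 and 2.65. The clone 2 peak, ranked 742 of 24981 with an implied 60 reads over 11.8, had the highest −log10 q near any of the 8 genes. A further region 45.4 kb away, inside EHD1, was shared by clones 1 and 2, with folds of 3.85 and 2.73.

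BMI1 (gene ID 648, chr10:22321099-22331706, plus strand) had no peak at its ends or inside it in any library. Its 5 peaks within 50 kb all lay past its 3′ end, between BMI1 and SPAG6. Clone 1 had 4, at 2.8, 5.01, 9.02 and 13.5 kb from the gene, with folds of 3.48, 4.89, 4.02 and 3.21. Clone 2 had 1, at 3.76 kb, with a fold of 4.54 and a −log10 q of 3.96. No 2 of these overlapped, and clone 3 had no peak within 6.2 Mb. The BMI1 promoters had 73.3 and 91.0% G+C, the latter the highest of the 12 promoters of the set, and no base of either was under a peak.

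**Figure D4:**
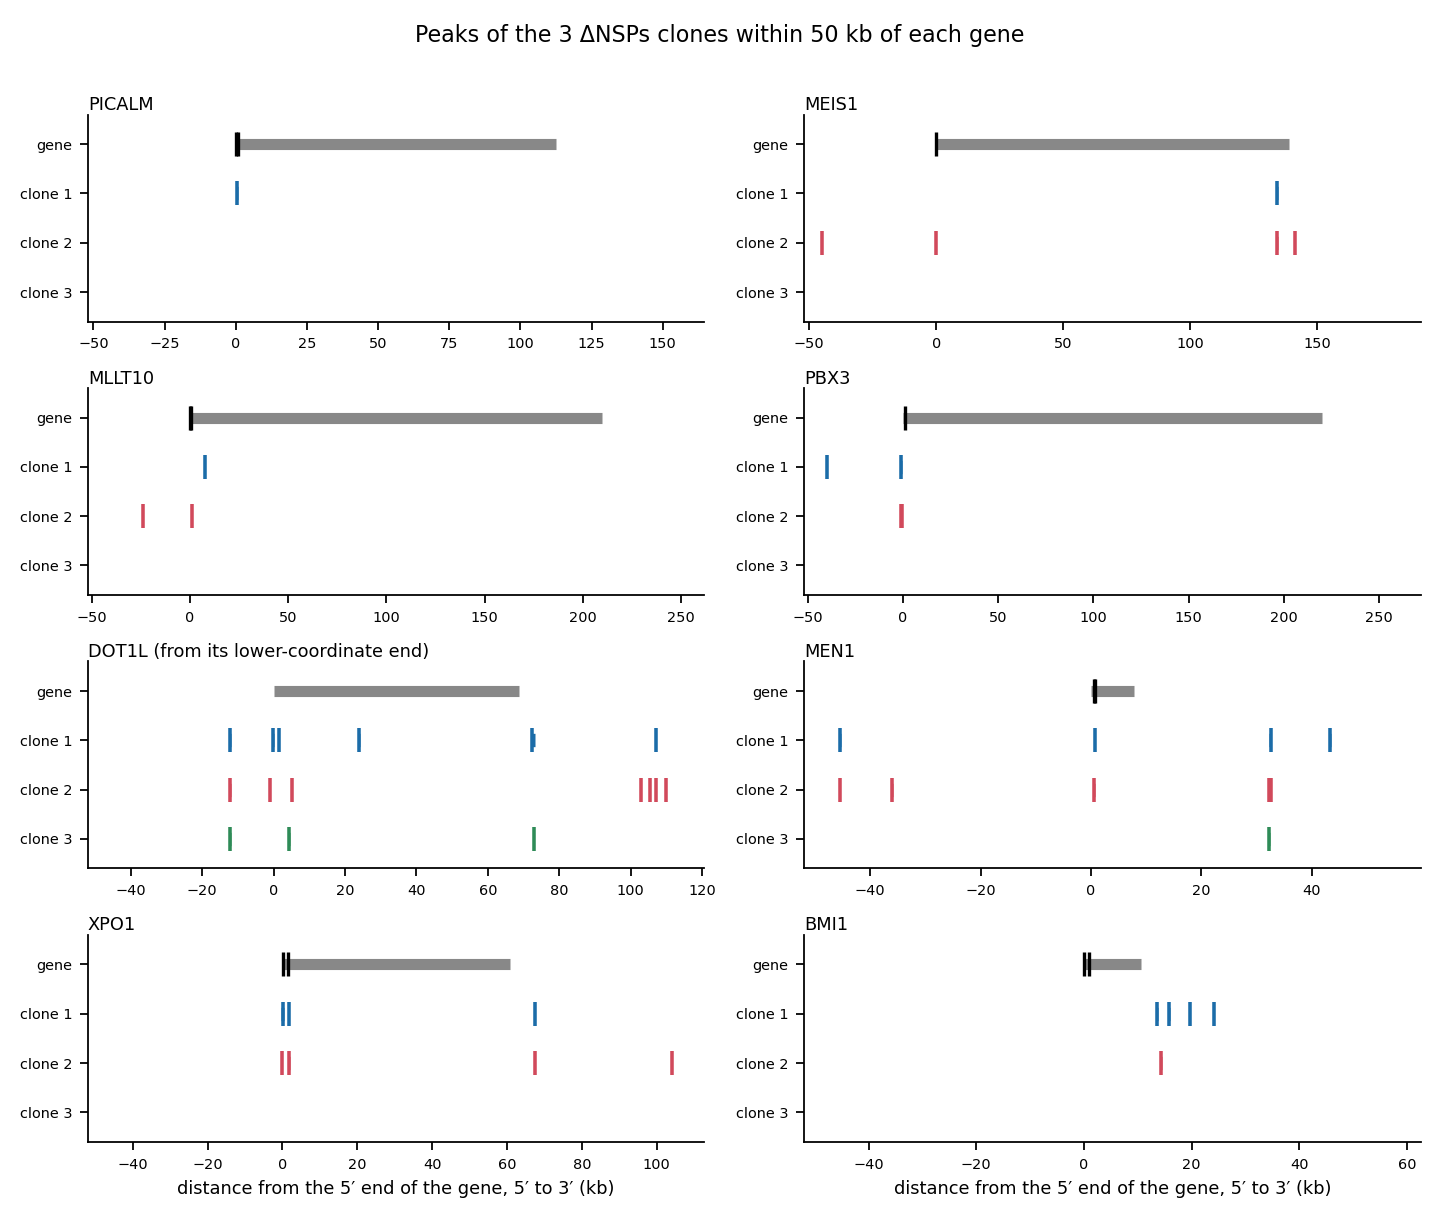
Peaks of the 3 clones (coloured bars, tick at the summit) within 50 kb of each gene, drawn 5′ to 3′ against distance from the 5′ end in kb (DOT1L from its lower-coordinate end); the grey bar is the gene and black ticks are RefSeq starts. DOT1L has 6, 7 and 3 peaks in clones 1, 2 and 3, PICALM a single peak in clone 1, and the BMI1 peaks all lie past its 3′ end.

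Across the 8 genes the clones' peaks formed 36 regions, of which 25 were in 1 clone, 9 in 2 and 2 in all 3. Both regions common to all clones lay outside the 8 genes, in AP3D1 and at the SF1 start. At gene ends 3 of 6 regions were shared by clones 1 and 2 (XPO1, PBX3 and MEN1). Inside the genes and away from their ends 2 of 8 were shared, and outside the genes 4 of 22 by 2 clones. With the added demand that the clones' peaks fall in 1 region, the 3 gene-end calls held, beside 21.4% of all genes. Inside the gene XPO1, MEIS1 and MEN1 then remained, beside 18.3%. Here any overlap with the gene counted, so MEN1 entered through the same region as at its gene end. Within 50 kb 5 of 8 remained, beside 51.2%, and MLLT10 and BMI1 were the genes that dropped out.

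The number of peaks within 50 kb of the 8 genes was 22, 25 and 4 in clones 1, 2 and 3, or 0.154, 0.1 and 0.183% of each list, and 0 in each control line (difference of means 1.16 after adding 1 and taking log10, exact permutation p = 0.1, two-sided). Folds ran from 2.12 to 4.89 (median 3.66) in clone 1, from 2.2 to 5.32 (median 3.67) in clone 2 and from 2.54 to 3.9 (median 2.79) in clone 3. Clone 3, with the fewest peaks, had no peak at an end of any of the 8 genes.

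At gene ends, the members with a peak in clone 1 had a median best fold of 3.43 beside 3.55 over all genes with one, and a median −log10 q of 6.59 beside 5.64. In clone 2 the medians were 2.94 beside 3.79 and 3.61 beside 6.39, and none of the 4 genes with a peak stood above the median of all genes on either measure. Genes with the most similar gene-end folds in clones 1 and 2, among 3340 genes with peaks in these clones alone, were LIN37 for XPO1 (2.22 and 2.18), CARD9 for PBX3 (4.77 and 3.64) and CCDC127 for MEN1 (3.83 and 3.22). The summed differences of log2 fold were 0.04, 0.01 and 0.03.

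By RefSeq start, peaks within 1000 bp were found at PICALM, XPO1 and MEN1 in clone 1, at MLLT10, XPO1, MEIS1 and MEN1 in clone 2 and at none in clone 3 or the control lines, beside 42.1, 32.0 and 6.91% of genes with an entry in clones 1, 2 and 3. XPO1 and MEN1 were called, 2 of the 7 genes with an entry in the promoter table, beside 25.4% of the 15812 genes with one; DOT1L had no entry. Both calls came from regions that the clones shared, beside 23.4%, and none of the 7 had a peak at a start in all 3 clones, beside 5.79%. Where the strand was known, each gene-end peak of the set lay at a 5′ end, 4 of 4 genes in clone 1 and 4 of 4 in clone 2. Over all genes with a gene-end peak and a known strand, 96.0% had one at the 5′ end in clone 1 and 92.5% in clone 2.

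These 7 genes have 12 promoters, each from 250 bases before to 50 from the start on. Of the 12, 4, 3 and 0 had a base under a peak in clones 1, 2 and 3. The 2 promoters of MEN1 overlap and lay partly under the same peaks, so MEN1 counts as 2 in clones 1 and 2. The shares over all promoters of protein-coding genes were 31.2, 21.0 and 4.75%. Among all such promoters, those under a peak had a higher median G+C share than the rest, 67.3 beside 59.0% in clone 1 and 64.7 beside 61.3% in clone 2. The set did not show that order throughout: the covered MEIS1 promoter had 58.3% G+C, and the 4 richest promoters, of BMI1, MLLT10 and PBX3 (73.3 to 91.0%), were uncovered.

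Exact words were searched on both strands. GC boxes (GGGCGG) were in 9 of the 12 promoters and in 45.0% of the 35116 promoters of the table. CCAAT was in 6 of 12 and 34.6%, with 1 word that the overlapping MEN1 promoters share counted in both. The table is wider than the 22132 promoters of protein-coding genes used above. Its median G+C share was 58.7%, against 46.0 to 91.0% in the 12, and the part of G+C in these counts was not tested. In the capitals above, PICALM held 5 GC boxes and 2 E-boxes (CACGTG, in 7.26% of all promoters), and XPO1 held 2 GC boxes and 2 CCAAT words. MEIS1 held 1 CCAAT word and 1 ETS word (CCGGAAGT, 4.14%), and the 86 capitals of MEN1 held none of the words searched. Outside those capitals, the MEN1 stretch held 2 GC boxes under the clone 1 peak alone. It also held 1 CCAAT word under the clone 2 peak alone. The MEIS word (TGACAG, 15.8%) was in a promoter each of PBX3, MEN1 and BMI1, and the RUNX word (TGTGGT, 13.1%) in one each of PICALM and MEIS1. None of the 12 held the palindromic NRF1 word (1.24%) or the words for PU.1 (GAGGAAGT, 2.59%, which shares GGAAGT with the ETS word), CRE (TGACGTCA, 1.85%), AP-1 (TGANTCA, 7.71%), PBX-HOX (TGATNNAT, 7.4%) or TATAAA (11.5%). A match is a description of the letters and not of a bound factor.

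Genes of pathway lists around the 8 were counted by the same call rule at gene ends. No list was tested against another, and the share of all genes beside each main count is 23.3%. In the list of nuclear export genes, 9 of 12 were called, beside 23.3% of all genes. The folds in clones 1, 2 and 3 were 2.82, 4.61 and 2.17 for NUP98, a nuclear pore gene and itself a leukaemia fusion partner. RANBP3, a cofactor of XPO1, had folds of 3.43, 3.55 and 4.58. In the list of PICALM and clathrin genes 8 of 15 were called. DNM2, the dynamin that cuts coated vesicles free, had folds of 2.7, 4.02 and 3.42, and AP2S1, the small subunit of the AP-2 adaptor, 3.18, 3.59 and 2.41. In these lists no gene was without a gene-end peak in some clone.

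In the list drawn up around MLL and menin, which is not limited to members of their complex, 6 of 10 were called, beside 23.3% of all genes. These were ASH2L, DPY30, KMT2A, KMT2B, MEN1 and RBBP5. KMT2A, the methyltransferase that menin tethers, had a fold of 4.18 in clone 1 and of 4.59 in clone 2. KDM2B and PSIP1, which encodes the chromatin reader LEDGF, had none in any library. Among DOT1L and AF10 partners 3 of 12 were called (CCNT1, ELL and MLLT1). ELL, an elongation factor, was the only one of that list with a peak in all 3 clones, with folds of 3.74, 4.37 and 2.7, and MLLT10 and MLLT6 were among those with none.

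Among TALE and HOXA genes 3 of 12 were called, beside 23.3% of all genes: HOXA9, PBX3 and PKNOX1. The HOXA9 folds were 3.01 in clone 1 and 4.07 in clone 2. PKNOX1, a TALE gene, had 2.67, 6.65 and 3.01 in the 3 clones, whereas HOXA5, HOXA7, HOXA10 and MEIS3 had no gene-end peak. In the Polycomb list 1 of 17 was called, CBX8, with folds of 3.43 and 3.09, and 8 had no gene-end peak, among them BMI1 and CBX2. Of genes known from other leukaemia fusions 6 of 15 were called (ABL1, KMT2A, NUP214, NUP98, PML and TCF3), and BCR, CBFB, ETV6, MYH11, RARA and RUNX1T1 had none. Over the 82 distinct genes of these lists other than the 8, 30 were called, or 36.6%, beside 23.3% of all genes. The count over all 90 genes was 33. Without clone 1 it was 6, beside 5.63% of all genes, and without clone 2 it was 8, beside 6.21%. In each pathway list 0 to 2 genes were called without clone 1 and likewise without clone 2. With clone lists of equal length each list also had 0 to 2, beside 4.9% of all genes. Called genes that lacked a peak in 1 clone, such as KMT2A, HOXA9 and CBX8, and the lists of more than 3 genes without a peak were named after their values were seen.

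**Figure D5:**
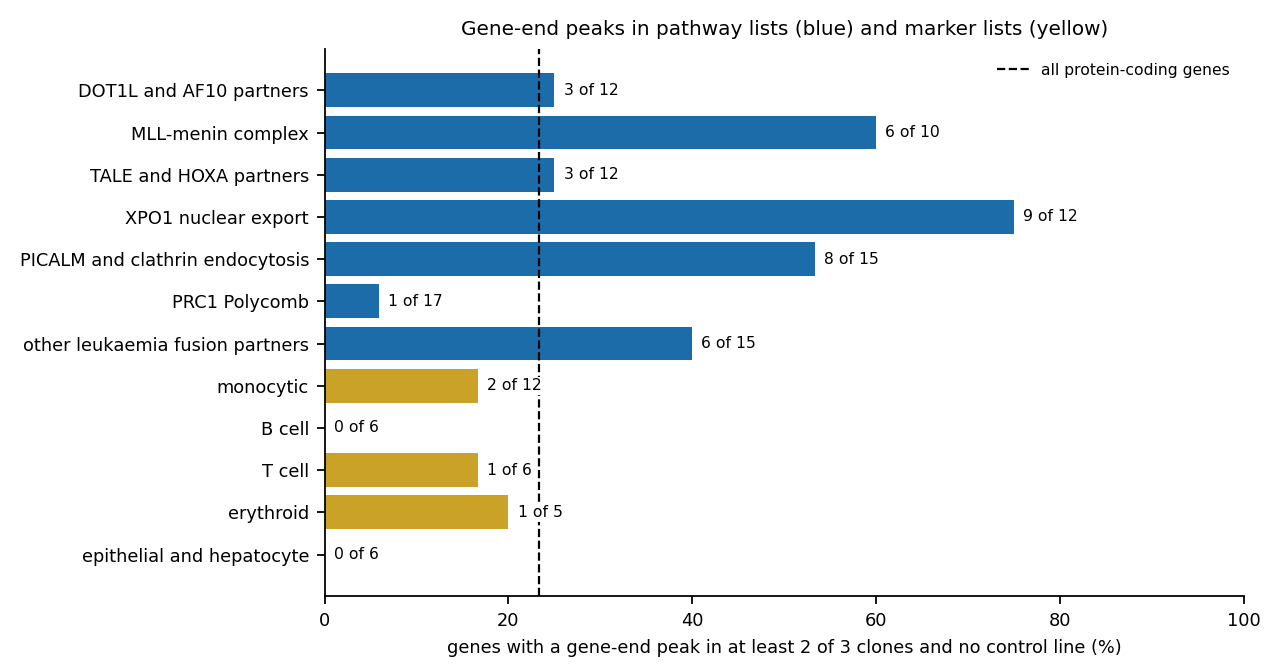
Percent of each list's genes (bars, with counts) called at a gene end, for the pathway lists (blue) and the cell type marker lists (yellow); the dashed line is the 23.3% of all protein-coding genes. The nuclear export list reaches 9 of 12 and the Polycomb list 1 of 17.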

How the data were processed

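ATAC-seq peak lists of 3 control lines and 3 ΔNSPs clones of U937 were used as deposited, with groups and replicate numbers from the sample titles. FastQC, Bowtie2, Picard and MACS2 and build GRCh38 are named per the submitters' processing notes; for versions, settings and any shift for the transposase, the sources used here give nothing. Each list was called on a single library. Per summit the authors deposited a fold enrichment (a ratio over local background), −log10 p and −log10 q, and a score that follows from the −log10 q and was not used. Values were compared between lists only to describe peaks.

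Lines that share an interval were counted as 1 peak with its best summit (highest −log10 q). Gene positions and promoters came from RefSeq tables (GRCh38.p14), which give no exons. A peak counted where it overlapped a window by 1 bp or more. Pile-up and background were derived by treating the fold as (pile-up + 1) divided by (background + 1), with a Poisson p, which gave whole reads within 0.05 read for 100% of the peaks of each list. Counts per library were compared by a two-sided exact permutation test (20 assignments). No list was tested. The scripts were checked on simulated peaks. Python 3.11.15, pandas 2.3.3, numpy 2.4.6 and scipy 1.17.1 were used.

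The 8 genes, the pathway lists and the marker lists were chosen with earlier results of these data known. All 125 list symbols matched the gene table. The genes named were the 8, the gene most similar to each called one (smallest summed difference of log2 fold in the same clones), neighbours that share a peak, and per pathway list up to 3 genes found in all 3 clones and up to 3 found in none; others are said to be named after their values were seen. The labels say that the clones are independent and do not say how the control lines were derived. A p-value is the share of assignments with a difference of means at least as large as the one seen. It applies to these libraries alone. No batch is named in the labels, and batch and group cannot be told apart.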

Additional observations from a re-analysis of the deposited data

How the results depend on the processing

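The calls at the 8 genes rested on clones 1 and 2. Over lists that leave out 1 library each, the count called ran from 0 to 3 at gene ends, 1 to 5 inside the gene, 2 to 7 within 50 kb and 0 to 2 at a RefSeq start; the low values came without clone 1 or clone 2. Of all genes, 5.63, 4.78, 21.9 and 6.02% were called in that order without clone 1 and 6.21, 5.09, 21.6 and 6.56% without clone 2; leaving out clone 3 or any control line changed none of the 4 counts. Requiring all 3 clones gave 0, 1, 2 and 0 called, in the same order (5.4, 4.26, 21.1 and 5.79% of all genes). At a −log10 q of 5 or more the counts were 1, 2, 4 and 1 (11, 11.3, 40.2 and 12.1% of all genes). At a fold of 5 or more all 4 counts were 0 (0.661, 1.49, 10.8 and 0.607% of all genes), and the differences per library at gene ends and inside the gene were 0. With the clone lists cut to an equal 2188 peaks the counts were 0, 0, 1 and 0 (4.9, 4.3, 21.0 and 5.16% of all genes). A gene-end window of 500 bp left 1 gene, XPO1 (20.6% of all genes). The PBX3 peaks lay beyond that window outside the gene, and the MEN1 peaks beyond it inside the gene. Within 500 bp of a RefSeq start 2 genes were called, XPO1 and MEN1 (23.7% of genes with an entry). A window of 2500 bp added DOT1L, for 4 called (27.1%), and counting summits in place of peaks dropped PBX3, for 2 called (22.9%). 2 alternatives were added after seeing the data. With the same lowest −log10 p in all lists, 1 gene was called at gene ends (PBX3; 12.7% of all genes), 2 inside (13.0%), 5 within 50 kb (43.9%) and 1 at a RefSeq start (14.0%). A region shared by clones was called inside 3 genes (18.3%). Of 112 recomputed values 31 moved, and the cause was not tested. The other 81 are no measure of stability. A difference per library counted as kept whenever it stayed above 0, however much it shrank. A count of called genes was kept if it stayed within a set ratio of the main count. Leaving out a control line could not move a value, as every control value at these genes was 0.

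With the replicate number as a block, an exact sign-flip test over 8 assignments (smallest p 0.25) gave p = 0.5 for the mean difference of 3 genes at gene ends, and p = 0.25 for 4 genes inside, for 5.67 genes within 50 kb and for 1.16 on the log10 scale of peaks. Whether the numbers pair the libraries could not be checked, since every control value was 0 and the labels do not say what a number marks. Without read totals no limit could be set on peaks missed in the control lists.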
